A study of Mus musculus with 30 samples.

Results

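The effect of 1 h of SRCAP degradation in late G1 was measured in mouse embryonic stem (ES) cells by nuclear RNA-seq, in 4 of the 30 libraries of the series. The 4 libraries are the LG1 columns of the sorted-cell table, with 2 biological replicates of control cells and 2 of cells treated with indole-3-acetic acid (IAA) for 1 h, and they were compared within replicate number, in exonic and in intronic counts. All were made from SYAT cells, a CGR8 derivative in which both Srcap alleles carry a fusion to YPet and an auxin-inducible degron, and which expresses the auxin receptor OsTir1. Cells were in serum and LIF medium. IAA at 500 µM recruits the tagged protein to OsTir1 for degradation, whereas control cells were kept in auxinole, an inhibitor of Tir1. The cells also stably expressed an mCherry-tagged mitotic degron, a reporter that is destroyed at mitosis and builds up again during interphase, and LG1 cells were sorted as cells of G1 DNA content with high mCherry. The model limits what can be read from the comparison: the degron line is a single engineered line, the tagged protein replaces wild-type SRCAP in control cells too, and the groups differ both in auxin and in its inhibitor.

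SRCAP is the ATPase of a remodelling complex that exchanges H2A for the variant H2A.Z in nucleosomes, mostly at promoters and enhancers. In ES cells H2A.Z is found both at active genes and at silent developmental genes poised for activation. Intronic counts of nuclear RNA come mostly from unspliced transcripts and follow transcription closely, while exonic counts also hold spliced RNA still in the nucleus and older transcripts that dilute a change of short duration.

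The 4 LG1 libraries held 4520810 to 7724200 intronic and 19740778 to 24382959 exonic counts. Of 13373 multi-exon genes with at least 20 exonic counts in each LG1 library, 1639 were at 0 in the intronic columns of all 4 libraries, Srcap among them, so their introns could not be tested. A further 501 were at 0 in the intronic columns of some of the libraries only. Srcap exonic counts were 1111 and 1072 in control and 1327 and 1190 in IAA cells (log2 fold change 0.13, SE 0.0620, adjusted p = 0.572). Because the degron acts on the protein, this transcript does not check depletion. H2afz, the gene of H2A.Z.1, was at 0.11 in exons (adjusted p = 0.506). ES cell markers (8 genes, Pou5f1, Sox2 and Nanog among them) summed to 2024 to 2317 exonic CPM (counts relative to the library total, per megaread), against 2.64 to 3.75 for the 8 genes of the 2-cell-like list found in the table and 239 to 273 for trophectoderm genes. Primitive endoderm genes summed to 402 to 477 and neural genes to 357 to 418. Fibroblast genes summed to 1979 and 1364 in control and 1955 and 1306 in IAA cells, a difference between replicates 1 and 2 and not between treatments, with Lum and Postn at 0 in all 4 libraries. Replication-dependent histone genes, which are induced towards S phase, summed to 5218 to 9041 CPM in LG1 and to 2853 to 4736 in the early G1 (EG1) libraries of the same table. Other cell cycle lists overlapped between the phases. DNA replication genes summed to 7155 to 9140 in LG1 and 5816 to 7947 in EG1, and mitotic genes to 4691 to 5487 and 5015 to 6620. Genes of G1 cyclins, kinases and inhibitors summed to 1503 to 1864 in LG1 and 1302 to 1724 in EG1. IAA replicate 1 stood apart in ribosomal RNA: annotated rRNA genes took 1.66% of its exonic counts against 0.413% to 0.464% in the other 3 LG1 libraries.

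Few genes changed beyond the spread of duplicates, and in the main fit more of those past the study's thresholds for sorted cells were lower than higher. A gene was called lower or higher when its log2 fold change passed 0.25 in size at an unadjusted p under 0.05, in a fit with the replicate number as a block. In introns, 769 of 13330 genes tested were lower (5.77%) and 471 were higher (3.53%), with a median absolute log2 fold change of 0.62 among the lower and 0.51 among the higher. In exons, 529 of 19799 genes were lower (2.67%) and 293 were higher (1.48%), with medians of 0.44 and 0.39. An unadjusted p under 0.05 alone was reached by 1240 genes in introns (9.3%) and 1750 in exons (8.84%). At an adjusted p under 0.05 there were 3 genes in introns (0.0225%) and 16 in exons (0.0808%). A fit with no replicate block called 263 lower and 86 higher genes in introns and 57 and 22 in exons, and none at an adjusted p under 0.05. DESeq2 with the block and shrunken fold changes, the tool of the study, called 114 and 44 in introns and 0 and 1 in exons. Scaling by library totals in place of TMM moved the share of higher genes among the calls from 38% to 14.1% in introns and from 35.6% to 18.6% in exons, and median-of-ratios scaling moved it to 47.7% in exons. The direction of the balance was not stable in fits leaving out a library, all without the block. Without control replicate 1 or IAA replicate 2, higher genes outnumbered lower ones in both columns. Without control replicate 2 they did so in exons.

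**Figure D1:**
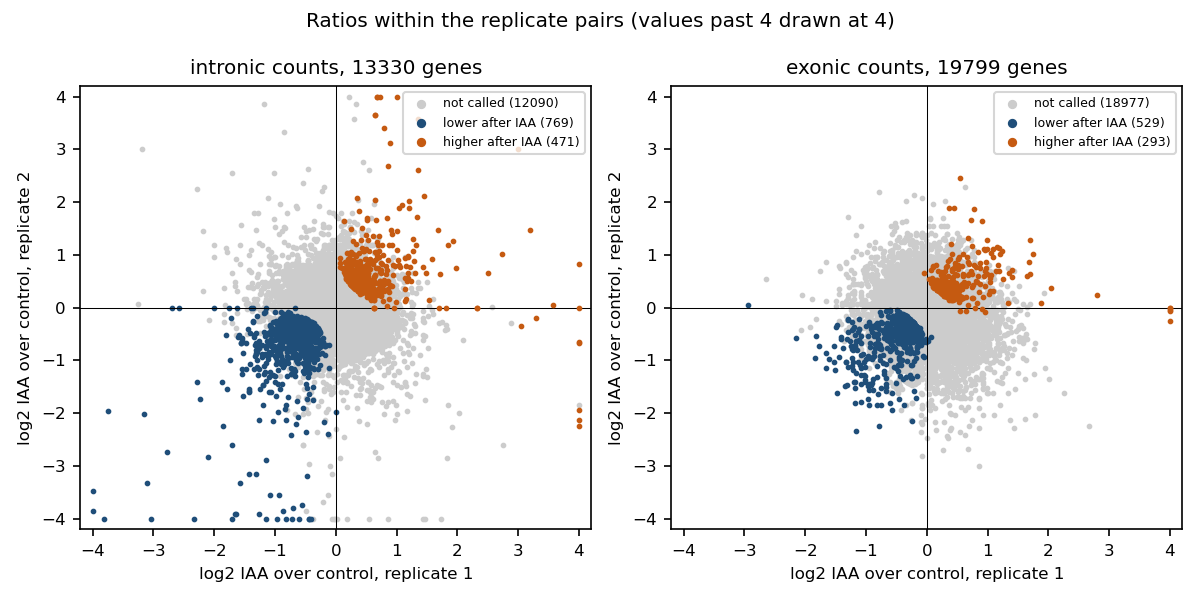
Log2 ratio of IAA over control in replicate 2 (y axis) against replicate 1 (x axis) for each gene tested in intronic (left) and exonic (right) counts, scaled CPM with a prior count. Blue points are called lower and orange points called higher. Called genes lie at the lower left and upper right by construction of the call, whereas the grey cloud of all genes is nearly round, with a Pearson r across genes of 0.14 in introns and 0.00062 in exons.

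The replicate pairs went together only weakly across genes. The ratio of IAA over control had the same sign in both pairs for 57.2% of genes in introns and 54.1% in exons, with a Spearman rho across genes of 0.16 and 0.0673, and the pairs share no library. Over genes with a mean of at least 100 counts the rho was 0.19 in introns and 0.17 in exons. Genes are not independent replicates, and these correlations are descriptions without a test. Among called genes the ratio had the same sign in both pairs for 759 of 769 lower and 455 of 471 higher genes in introns. That follows largely from the call itself and is no separate evidence of agreement.

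Targets of the aryl hydrocarbon receptor (AhR) were lower, and 3 of them are among the 16 exonic genes at an adjusted p under 0.05. AhR is a ligand-activated transcription factor that, with its partner ARNT, binds DNA around the core GCGTG and induces the cytochrome P450 enzymes Cyp1a1 and Cyp1b1, the ADP-ribosyltransferase Tiparp and the repressor Ahrr. Tiparp and Ahrr act as feedback inhibitors of the receptor. Their upstream sequences are printed because these 4 genes carry the decrease. Each line holds the 250 bases before the RefSeq start of the gene, 5′ to 3′ on the gene's strand, with GCGTG or its reverse complement CACGC in capitals (GRCm38.p6). Ahrr is at chr13:74292332-74292581 (minus strand), Cyp1a1 at chr9:57697363-57697612 (plus), Cyp1b1 at chr17:79715062-79715311 (minus) and Tiparp at chr3:65528197-65528446 (plus). The RefSeq start of Cyp1a1 lies 9685 bases inside the GENCODE gene.
Ahrr: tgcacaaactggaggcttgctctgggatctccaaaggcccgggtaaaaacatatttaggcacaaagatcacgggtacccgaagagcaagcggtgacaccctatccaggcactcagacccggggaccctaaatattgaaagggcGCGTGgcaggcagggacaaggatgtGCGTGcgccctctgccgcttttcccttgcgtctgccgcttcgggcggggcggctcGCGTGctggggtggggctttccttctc
Cyp1a1: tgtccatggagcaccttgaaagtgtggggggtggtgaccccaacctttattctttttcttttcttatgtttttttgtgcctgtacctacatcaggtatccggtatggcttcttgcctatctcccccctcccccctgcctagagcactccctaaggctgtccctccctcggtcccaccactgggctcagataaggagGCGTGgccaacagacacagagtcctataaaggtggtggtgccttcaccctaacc
Cyp1b1: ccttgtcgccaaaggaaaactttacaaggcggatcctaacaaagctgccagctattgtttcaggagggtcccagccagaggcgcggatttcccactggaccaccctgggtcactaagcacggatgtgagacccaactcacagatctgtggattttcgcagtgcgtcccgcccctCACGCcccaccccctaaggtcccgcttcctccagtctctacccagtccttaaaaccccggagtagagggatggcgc
Tiparp: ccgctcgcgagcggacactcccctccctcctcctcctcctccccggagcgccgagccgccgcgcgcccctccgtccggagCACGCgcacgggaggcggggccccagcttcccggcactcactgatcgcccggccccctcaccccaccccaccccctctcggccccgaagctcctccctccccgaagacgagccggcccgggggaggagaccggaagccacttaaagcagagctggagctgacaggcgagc
The core was matched 3 times in Ahrr and once each in Cyp1a1, Cyp1b1 and Tiparp, in a search of both strands in which matches were allowed to overlap. It was chosen after the values were seen, and 31.9% of the 20539 RefSeq promoters matched to genes of the table held it in the same window. Among the genes tested the share of matched promoters with the core was higher, at 44.5% in introns and 44.1% in exons. A match is a description of these letters and not a binding site.

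Cyp1a1 exons stood at 159 and 81.1 TMM-scaled CPM in control replicates 1 and 2 and at 59.8 and 53.9 in IAA replicates 1 and 2. Both IAA libraries lay below both controls, and the log2 fold change was -1.02 (SE 0.114, adjusted p = 3.00e-04). Its introns stood at 56.8 and 43.5 in control and 29.5 and 28.5 in IAA cells, a log2 fold change of -0.78 (SE 0.185, adjusted p = 0.244), again without overlap. Cyp1b1 exons were at 104 and 43.4 in control and 53.9 and 35.7 in IAA cells. Here the groups overlapped, because replicate 1 was higher than replicate 2 in both, and the fall appeared within each pair (-0.65, SE 0.100, adjusted p = 0.00885). Its introns, at 38.2 and 27.3 against 18.6 and 16.4, did not overlap (-0.90, SE 0.211, adjusted p = 0.244). Without control replicate 1, in a fit with no block, Cyp1b1 exons were at 0.0435.

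Tiparp exons were at 184 and 193 in control and at 126 and 159 in IAA cells (log2 fold change -0.41, SE 0.0604, adjusted p = 0.00646). Its introns did not pass the thresholds (-0.31, adjusted p = 0.640). Ahrr showed the converse: its introns fell from 48.0 and 46.6 to 25.1 and 26.7 (-0.87, SE 0.184, adjusted p = 0.178), while its exons, at only 68 to 93 counts a library, were at -0.06 (adjusted p = 0.973). The transcripts of the receptor and its partner did not pass the thresholds in either column, with Ahr at 0.08 and Arnt at -0.01 in exons, nor did Nqo1, a quinone reductase shared with the NRF2 pathway, at -0.20 (adjusted p = 0.548). In all, 3 of 12 AhR pathway genes tested were lower in exons and 3 of 11 in introns, beside 2.67% and 5.77% of all genes, and none was higher. A fit with no replicate block left 1 lower gene in exons and 3 in introns, and leaving out IAA replicate 1 left 2 and 3.

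Cyp1a1 and Cyp1b1 also fell in CGR8 cells, which carry no degron, after 4 h of IAA at the same dose, in exonic counts of 2 control and 2 treated libraries. The log2 fold change there was -1.73 for Cyp1a1 (SE 0.190, adjusted p = 2.75e-04) and -1.33 for Cyp1b1 (SE 0.166, adjusted p = 6.28e-04), whereas Tiparp was at 0.22 (adjusted p = 0.414). The times differ (4 h and 1 h), and auxinole is described for the SYAT controls, so the sizes are given side by side and not compared. In SYAT cells sorted in EG1 after 1 h of IAA, Cyp1a1 was at -0.89, Cyp1b1 at -0.55 and Tiparp at -0.31. In unsorted SYAT cells after 2, 4, 6 and 8 h, Cyp1a1 was at -0.74, -0.82, -1.19 and -1.28. How much of the LG1 fall in these genes comes from IAA or auxinole and how much from loss of SRCAP cannot be told apart in the LG1 libraries.

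**Figure D2:**
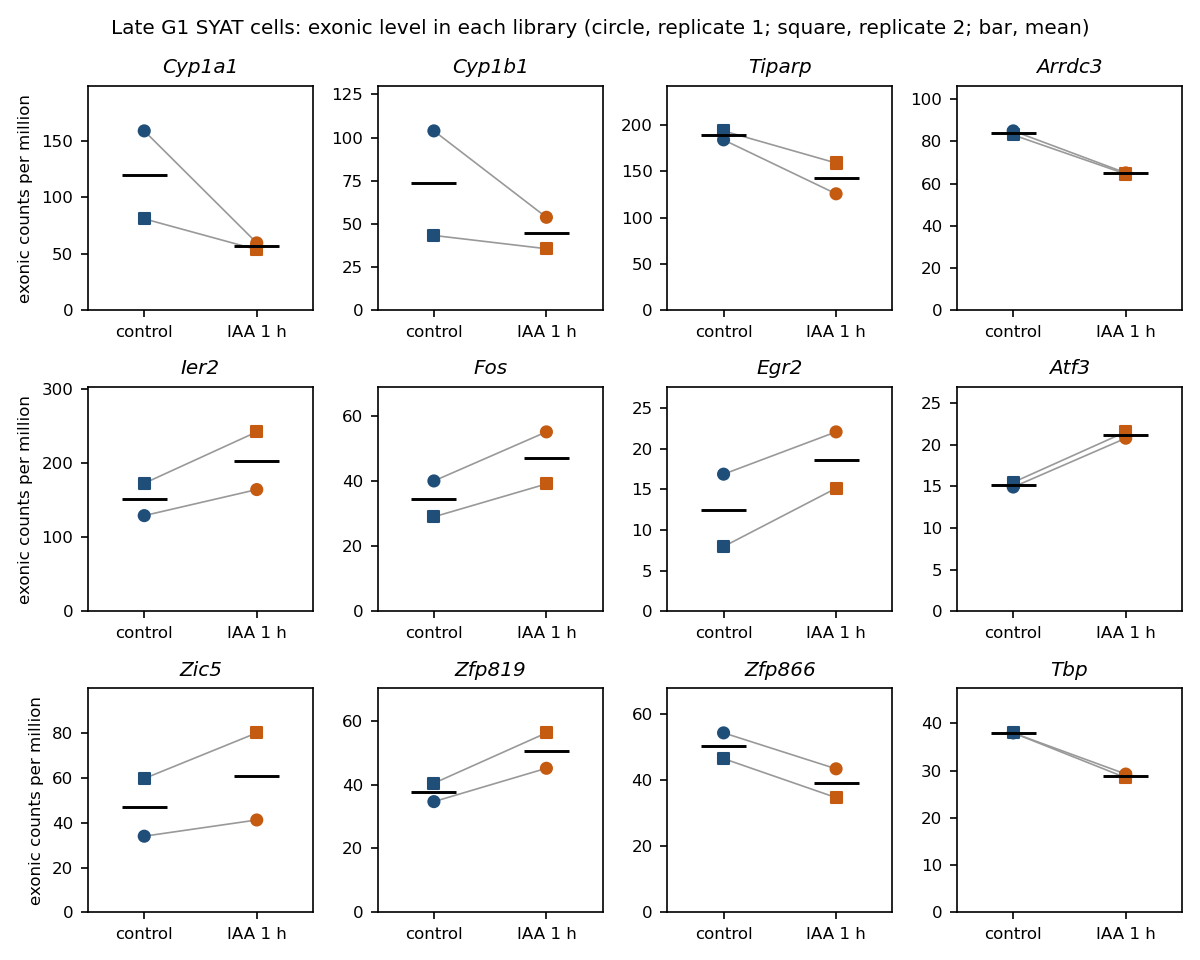
Exonic level of 12 genes (y axis, scaled CPM, starting at 0) in the control and IAA libraries of LG1 cells (x axis). Circles are replicate 1, squares replicate 2, lines join the libraries of 1 replicate number and bars are group means. Cyp1a1 fell from 159 and 81.1 to 59.8 and 53.9, and Ier2, Fos, Egr2 and Zic5 rose within each pair while their groups overlapped.

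Of the immediate early genes, 11 rose in exons. These genes are induced within minutes by growth factor and stress signalling and encode short-lived transcription factors and phosphatases. Of 34 members tested, 11 were called higher and none lower, against 1.48% of all genes higher, and the median log2 fold change of the list was 0.20, beside 0.00 over all genes. The median within replicate 1 was 0.098 and within replicate 2 it was 0.27. Ier2, a nuclear regulator, was at 129 and 173 scaled CPM in control and 164 and 242 in IAA cells (0.42, SE 0.0538, adjusted p = 0.00167). Fos, the partner of JUN in AP-1, was at 40.1 and 29.1 in control and 55.2 and 39.2 in IAA cells (0.45, SE 0.0688, adjusted p = 0.00885). In both genes the groups overlapped, since replicates differed in level, and each pair rose.

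The zinc finger factor Egr2 was at 16.9 and 7.98 in control and 22.1 and 15.1 in IAA cells, a log2 fold change of 0.62 (SE 0.121, adjusted p = 0.0573). Atf3, a stress-induced AP-1 family member, did not overlap between groups, at 14.9 and 15.5 against 20.8 and 21.5 (0.48, SE 0.0955, adjusted p = 0.0655). The other called members were Fosb at 0.42, Ier3 at 0.38, Arc at 0.30, Jun, Junb and Myc at 0.28 and the phosphatase Dusp1 at 0.26. Egr1 was at 0.23, under the fold threshold, and Egr3, Ier5 and Btg1 were at 0.08, -0.05 and -0.01. These genes have few intronic counts: 18 were tested, of which Srf (0.54) and Fosl1 (0.45) were higher, beside 3.53% of all genes in introns. A fit with no block left 1 member higher in exons and leaving out IAA replicate 1 left 2. Scaled by library totals, 7 members were higher in exons and none in introns.

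Fos, Jun, Ier2, Egr2 and Atf3 were above 0 in each of the other SYAT comparisons. In EG1 cells after 1 h, Fos was at 0.67 (adjusted p = 6.21e-05), Jun at 0.49, Ier2 at 0.32, Egr2 at 0.73 and Atf3 at 0.70. After 2 h in unsorted SYAT cells Fos was at 0.78. In CGR8 cells after 4 h, Fos was at -0.23, Ier2 at -0.38, Jun at -0.70, Atf3 at -0.19 and Egr2 at 0.13, none of them past an adjusted p of 0.05. The difference between CGR8 and LG1 cells was not tested, and the times are not matched.

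**Figure D3:**
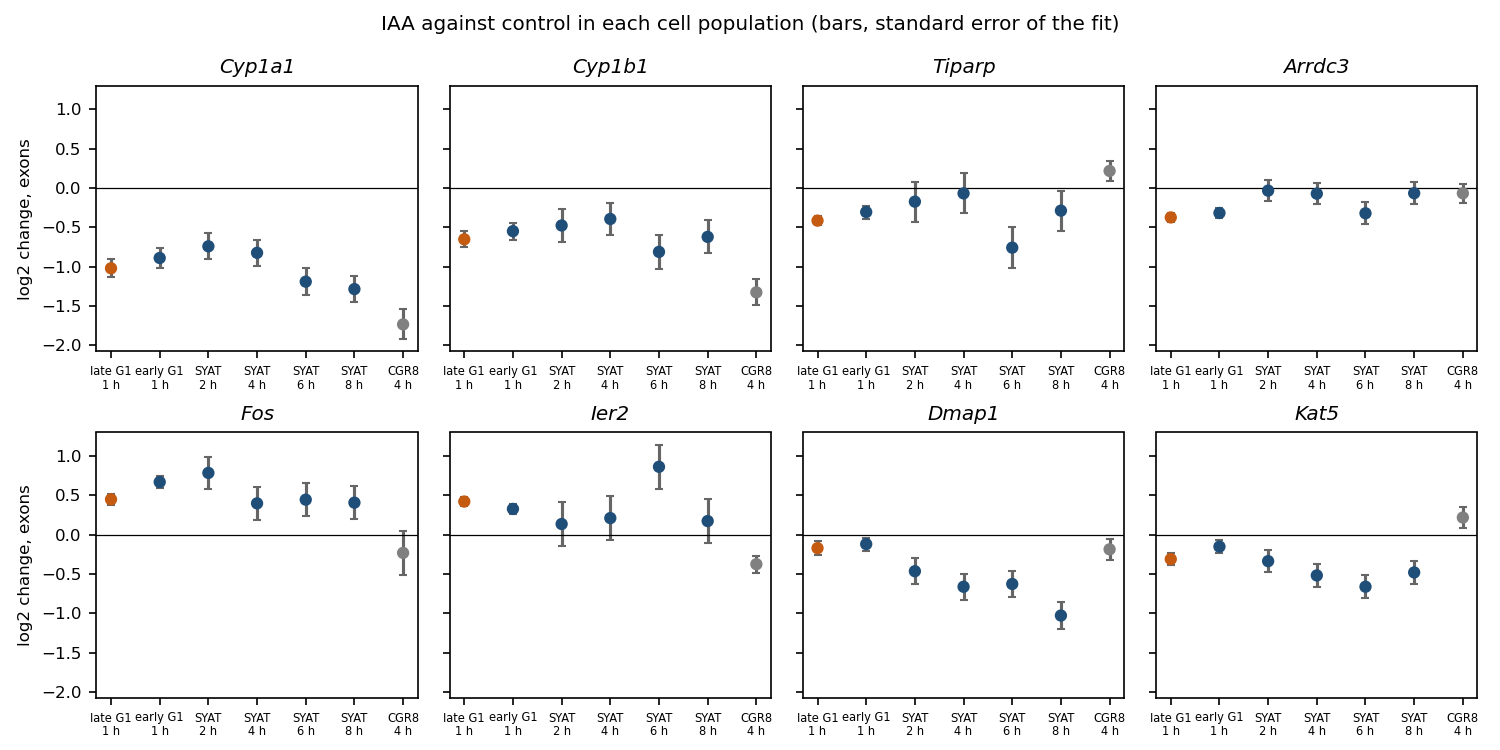
Log2 fold change of exonic counts, IAA against control (y axis, with the standard error of the fit as bars), of 8 genes in LG1 cells (orange), in EG1 cells and unsorted SYAT cells after 2 to 8 h (blue) and in CGR8 cells without a degron after 4 h (grey). Cyp1a1 was below 0 throughout, at -1.02 in LG1 and -1.73 in CGR8 cells, whereas Fos was at 0.45 in LG1 and -0.23 in CGR8 cells.

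Called members of the pluripotency lists were higher in both columns, with none lower, where 1.48% of all genes were higher in exons and 3.53% in introns. In exons Zic5, a zinc finger factor expressed as ES cells leave the naive state, was at 34.0 and 59.6 scaled CPM in control and 41.2 and 80.0 in IAA cells (log2 fold change 0.36, SE 0.0646, adjusted p = 0.0435). Its neighbour Zic2 was at 38.4 and 78.3 against 44.2 and 109 (0.36, SE 0.0671, adjusted p = 0.0513). Both were higher in replicate 2 than in replicate 1, so the groups overlapped, and both rose within each pair. Zic5 was also at 0.32 in EG1 cells and at 0.61 in CGR8 cells (adjusted p = 0.0222).

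Of the formative and primed list 3 of 16 members were higher in exons (Zic2 and Foxd3, at 0.46, among them) and 3 of 13 in introns (Sall2 at 0.60 and Otx2 at 0.68 among them), with none lower. Of the naive list 2 of 22 were higher in exons (Klf2 at 0.27 and Tbx3 at 0.28) and 4 of 16 in introns (Nanog at 0.98, Tdgf1 at 0.56, Dppa2 at 0.42 and Klf5 at 0.41), with none lower. Nanog introns had 27 and 20 counts in control and 43 and 48 in IAA cells, so its estimate rests on few reads (SE 0.361), and Nanog exons were at 0.17 (adjusted p = 0.460). The LIF-STAT3 and FGF-ERK list holds receptors, feedback genes and other members of these signalling pathways. Of its members 6 of 20 were higher in introns and 1 of 21 in exons. For all 3 lists the shares over all genes were 3.53% higher in introns and 1.48% in exons. The intronic ones included the LIF receptor Lifr at 0.49, Ccnd1 at 0.86 and Fgfr1 at 0.41, and Fgf4 was higher in both columns, at 0.59 and 0.28. Without a block, the naive and formative lists each had 1 higher gene in introns and none in exons, and the LIF and FGF list had none. Scaled by library totals, the naive, formative and LIF and FGF lists had 1, 0 and 1 higher genes in introns and 0, 2 and 0 in exons, with medians still above 0. Leaving out control replicate 1 or IAA replicate 2, in fits without the block, turned Zic2 (-0.030 and -0.41) and Foxd3 (-0.14 and -1.40) below 0 in exons, as did leaving out IAA replicate 2 for Zic5 (-0.20) and Fgf4 (-0.00523) and leaving out control replicate 2 or IAA replicate 1 for Tbx3 (-0.0197 and -0.0169).

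Genes of growth control and of the cell cycle were counted in the same way, beside 3.53% of all genes higher in introns and 1.48% in exons. Among p53 pathway genes 4 of 22 were higher in introns (Phlda3, Perp, Trp53 and Zmat3, at 0.35 to 0.46) and Bbc3, the death gene PUMA, in exons at 0.30 (adjusted p = 0.0513). Among G1 cyclins, kinases and inhibitors, E2f7 (0.64), Rbl2 (0.50) and Ccne1 (0.40) were higher in introns, and 0 of 29 members passed the thresholds in exons. Of 50 DNA replication genes tested in exons 0 were called, and of 67 mitotic genes 0, while in introns 1 of 45 (Pole2) and 1 of 59 (Dlgap5) were lower and 1 (Rrm2) and 5 (Ckap2, Ect2, Hmmr, Cdca2 and Kif23) higher. Replication-dependent histones were called higher for 6 of 56 in exons, with Hist1h4h at 0.25, Hist1h3d at 0.26, Hist1h3f at 0.27 and Hist1h2ab at 0.29, and a list median of 0.062 within replicate 1 and 0.24 within replicate 2. With no replicate block, 0 p53 pathway genes, 1 G1 cyclin list gene and 1 mitotic gene were higher in introns, and 0 histone genes in exons. Scaled by library totals, 0 p53 pathway and 1 G1 cyclin list gene were higher in introns and 1 histone gene in exons, against 12 histone genes with median-of-ratios scaling. Leaving out IAA replicate 2, in a fit without the block, turned Rrm2 introns (-0.0713) and the 4 histone genes named below 0 (-0.0915 to -0.30).

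**Figure D4:**
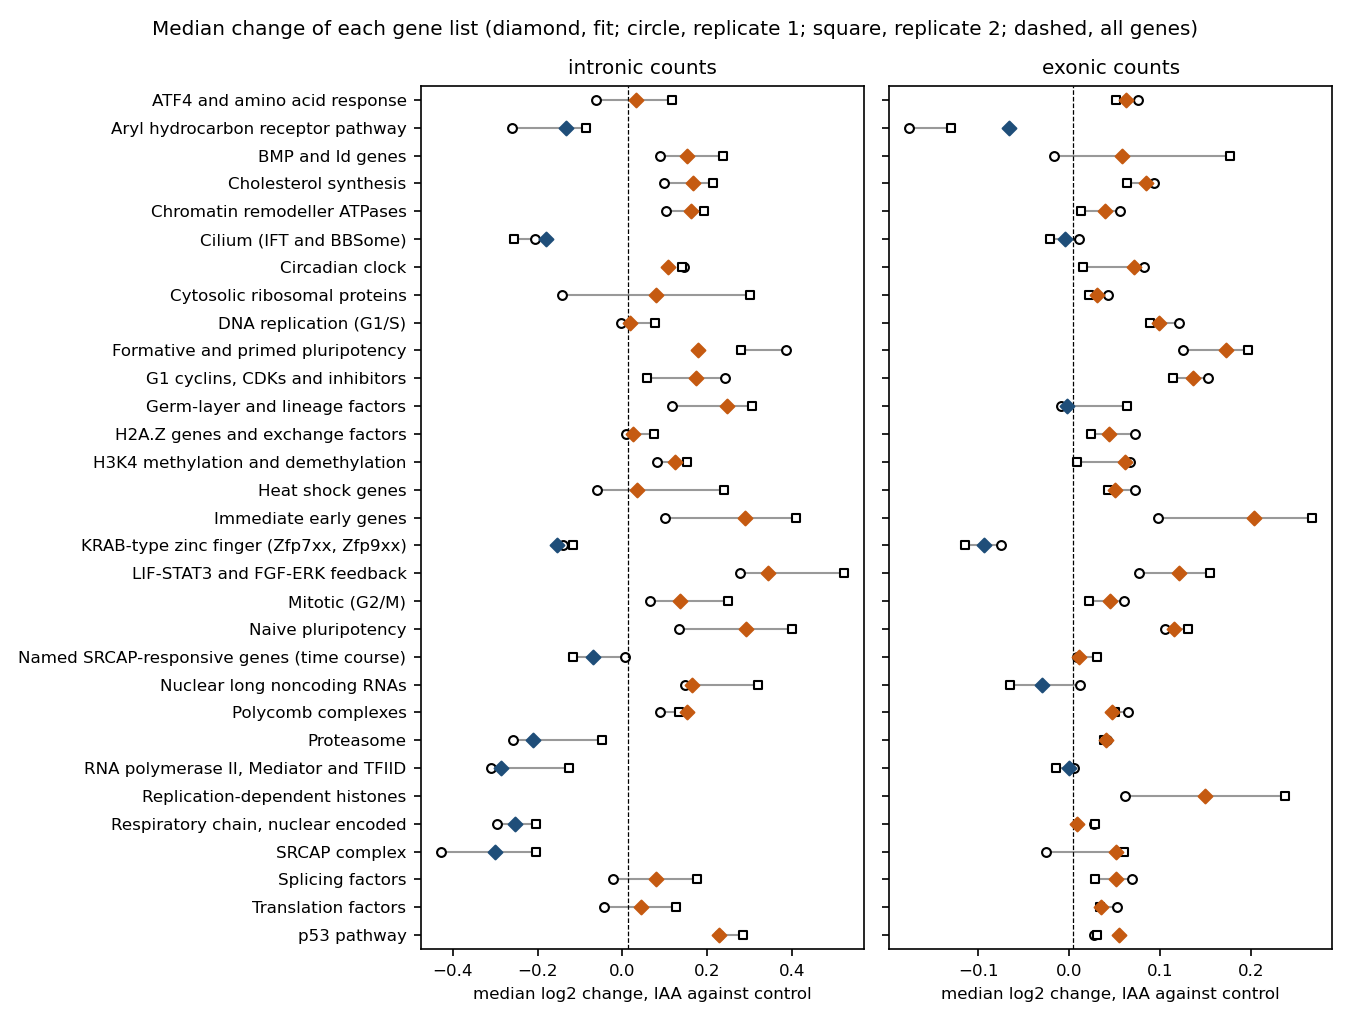
Median log2 fold change of the tested members of each gene list, IAA against control in LG1 cells, in intronic (left) and exonic (right) counts. Diamonds are the fit (blue below the median of all genes, orange otherwise), circles and squares the medians within replicates 1 and 2, and the dashed line the median of all genes. Introns of respiratory chain genes lay at -0.25 and those of naive pluripotency genes at 0.29, whereas in exons the respiratory chain lay at 0.0090 and immediate early genes at 0.20.

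In introns, members of several lists of basic cell functions were lower. Of the nuclear-encoded respiratory chain genes, which code for subunits of mitochondrial complexes I to V, 16 of 70 were lower and none higher, beside 5.77% and 3.53% of all genes, and the list median was -0.25 against 0.01 over all genes. Ndufa9, of complex I, was at 46.9 and 59.3 scaled CPM in control and 22.3 and 32.2 in IAA cells (-0.98, SE 0.180, adjusted p = 0.149). Cox6b1, of complex IV, was at 26.2 and 31.2 against 11.5 and 16.9 (-1.04, SE 0.220, adjusted p = 0.178). In neither gene did the groups overlap. Sdhd at -0.78, Ndufb3 at -1.13, Ndufa8 at -0.78 and Uqcrc2 at -0.64 were lower too. Their exons did not follow: 1 of 79 members was lower (Ndufa12, -0.30) and 1 higher (Ndufa5, 0.32), beside 2.67% and 1.48% of all genes. Ndufa9 exons were at -0.13 and those of Cox6b1 at 0.12. Without the block 9 members were lower in introns and without IAA replicate 1 there were 4, with 1 higher.

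Of the RNA polymerase II, Mediator and TFIID genes 10 of 69 were lower in introns and none higher, beside 5.77% and 3.53% of all genes, with a median of -0.29. They included Mediator subunits Med19 (-2.55, with 74 and 35 counts in control and 17 and 3 in IAA cells), Med15 (-0.54) and Med6 (-0.58), and the TFIIH subunit Gtf2h2 (-0.88). Tbp, the TATA-binding protein, was not tested in introns and was lower in exons, at 37.94 and 37.95 in control and 29.2 and 28.5 in IAA cells (-0.39, SE 0.0743, adjusted p = 0.0513), with no overlap between groups. Pdcd2 lies antisense to part of Tbp. In exons 5 of 79 members were lower (Tbp, Med10, Polr2k, Med29 and Taf1a) and Taf4b was higher at 0.33, beside 2.67% and 1.48% of all genes. The count of lower members in introns was 4 without the block and 4 without IAA replicate 1. Of 40 proteasome genes 5 were lower in introns, led by the inhibitor subunit Psmf1 (-0.70), and of 65 splicing factor genes 7 were lower, led by Snrpb2 (-1.16), and 2 were higher (U2af1 and Hnrnpul1). Of 45 cilium genes 8 were lower, led by Arl6 (-2.56, from 42 and 25 counts to 13 and 0) and Bbs4 (-0.88), and Tctn1 was higher (0.57). Of 56 translation factor genes 4 were lower, a share of 7.14% near the 5.77% of all genes. The medians of the splicing and translation factor lists were above 0, at 0.078 and 0.045. These 4 lists had no lower gene in exons, and without the block 2, 1, 1 and 1 of their members were lower in introns.

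Within the SRCAP complex 3 of 8 members tested in introns were lower and none of 9 passed the thresholds in exons, where 5.77% of all genes were lower in introns and 2.67% in exons. Dmap1, a subunit shared with the TIP60-p400 complex, was at 22.9 and 17.9 in control and 8.26 and 5.92 in IAA cells (-1.52, SE 0.25, adjusted p = 0.111). The groups did not overlap, and the gene had 27 to 149 intronic counts a library. Vps72, the subunit that binds H2A.Z, was at -0.66 and the ATPase Ruvbl1 at -0.42. Dmap1 exons were at -0.17 in LG1 (adjusted p = 0.595) and at -0.47, -0.66, -0.63 and -1.03 in unsorted SYAT cells after 2, 4, 6 and 8 h, the last with an adjusted p of 0.0216. Kat5, the acetyltransferase of TIP60-p400, was lower in exons (-0.31, adjusted p = 0.134) and at -0.66 in unsorted SYAT cells after 6 h (adjusted p = 0.0406). Without the block 1 member of the SRCAP complex was lower in introns.

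Zinc finger genes with names of the Zfp7xx and Zfp9xx series, many of which encode KRAB repressors of transposable elements, had lower members in both columns, 12 of 77 in introns and 10 of 90 in exons, with 1 (Zfp706) and 0 higher. Of all genes 5.77% and 2.67% were lower. The list median was -0.16 in introns and -0.093 in exons, and it was below 0 within each replicate. Zfp748 introns were at 16.1 and 17.1 in control and 6.72 and 8.77 in IAA cells (-1.12, SE 0.257), and its exons at 16.3 and 20.1 against 13.4 and 13.5 (-0.43, SE 0.107), with no overlap in either. The gene 9430065F17Rik lies antisense to it. Zfp959 was at -0.56 in introns and -0.51 in exons, and Zfp933 at -0.69 and -0.37. Outside the name series, Zfp866 was lower in exons, at 54.2 and 46.4 against 43.4 and 34.7 (-0.37, adjusted p = 0.0451), and Zfp819 was higher, at 34.7 and 40.4 against 45.1 and 56.2 (0.43, adjusted p = 0.00963) and in introns at 0.65. The counts of lower members fell to 4 in introns and 1 in exons without the block, and to 6 and 0 without IAA replicate 1, and the exonic count was 16 when libraries were scaled by their totals.

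Genes called the same way in both columns were 65 lower and 25 higher among the 11952 genes tested in both. The 65 were 8.77% of the 741 lower in introns and 23.6% of the 276 lower in exons, and the 25 were 5.62% and 17.2% of the 445 and 145 higher ones. Over all genes tested in a column, 2.67% were lower and 1.48% higher in exons, and 5.77% and 3.53% in introns. Calls in opposite directions were made for Ndufa5, lower in introns, and for Ciz1, Ephx1 and Gm29050, higher in introns. Alkbh3, a DNA and RNA demethylase, fell from 54.2 and 58.5 to 31.1 and 32.4 in introns (-0.83) and from 15.5 and 10.8 to 8.50 and 8.39 in exons (-0.62, SE 0.133, adjusted p = 0.0927). The antisense gene Alkbh3os1 and Gm27027 on the same strand overlap it, and the strand setting of the counting is not given. Alkbh3 was at -0.70 in EG1 cells (adjusted p = 0.0236), between -0.60 and -0.80 at each time in unsorted SYAT cells, and at 0.16 in CGR8 cells. The bromodomain gene Brd9 (-0.995 and -0.27) and the methyltransferase N6amt1 (-0.93 and -0.47) were lower in both columns too.

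Among the genes higher in both columns, Sall1, a zinc finger factor of the pluripotency network, was at 59.8 and 64.5 in control and 77.1 and 107 in IAA cells in introns (0.55) and at 59.6 and 75.0 against 71.4 and 95.5 in exons (0.31, SE 0.0565, adjusted p = 0.0512). Its intronic groups did not overlap and its exonic ones did. Slc27a2, a fatty acid transporter, was at 0.66 and 0.29 and the phosphatase gene Dusp10 at 0.62 and 0.38. Without IAA replicate 2, in fits with no block, Slc27a2 was at -0.0956 in introns and -0.10 in exons, and without control replicate 1 it was at -0.021 in exons. Arrdc3, an arrestin family gene, was lower in exons without overlap, at 85.0 and 83.1 against 65.1 and 64.6 (-0.37, SE 0.0557, adjusted p = 0.00760). It was at -0.32 in EG1 cells (adjusted p = 0.0452) and at -0.07 in CGR8 cells.

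Several of the strongest intronic calls did not pass the thresholds in exons. Gfm2, a mitochondrial translation factor, was the lower gene with the smallest p among those with a mean of at least 30 counts and the same sign in both replicate pairs, at 40.0 and 31.6 in control and 13.6 and 12.9 in IAA cells (-1.43, SE 0.216, adjusted p = 0.0796), with exons at -0.04. Another annotated gene overlaps Gfm2, and without a stated strand setting the reads of the overlap cannot be assigned. Gosr1 at -0.97, Ppil2 at -1.29, Arel1 at -0.98 and Tbc1d23 at -2.89 were lower with exons between -0.17 and 0.00. The Notch ligand gene Jag1 was the higher gene with the smallest p under the same rule, at 45.1 and 48.3 against 67.2 and 92.0 (0.75, SE 0.167, adjusted p = 0.204), with exons at 0.04. Cpt1a, the carnitine acyltransferase of fatty acid oxidation, was at 0.65 in introns and 0.05 in exons, and in exons of unsorted SYAT cells it was at 0.57, 0.86, 0.90 and 0.98 after 2, 4, 6 and 8 h. Notch4 was higher in both columns, at 1.12 and 0.29, and its exons were at -0.0699 without control replicate 2.

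The 3 intronic genes at an adjusted p under 0.05 each had libraries at 0. Slc35a3 had 91 and 18 intronic counts in control and 0 in both IAA libraries, and Slc4a1ap had 60 and 24 against 0. By group means, with a floor of 3 counts per library, they were at least 16.2-fold and 12.9-fold lower. These bounds rest mostly on control replicate 1. Slc4a1ap introns were also at 0 in every EG1 library, controls included, at 527 to 740 exonic counts. Whether such a 0 reflects a fall in transcription was not tested. Slc4a1ap exons were at -0.12 and those of Slc35a3 at -0.0018. Pou2f1 had 25 and 0 in control and 830 and 0 in IAA cells, so that IAA replicate 1 alone decided its call. In exons the annotated miRNA genes Gm24187 (13 and 0 against 743 and 0), Mir6236 (19 and 0 against 544 and 0) and Gm24270 (38 and 28 against 1470 and 24) and the antisense RNA gene Gm15564 (19 and 7 against 391 and 7) were all high only in IAA replicate 1, the library with the high rRNA share. Other noncoding RNAs were higher in both pairs: Rprl2, an RNase P RNA gene, at 34.8 and 46.5 against 47.5 and 63.0 (0.44, SE 0.0644, adjusted p = 0.00646), and Gm23935 at 1758 and 2082 against 2261 and 2409 (0.29, adjusted p = 0.00885). AC133509.1 was at 0.37 (adjusted p = 0.00963).

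The remaining lists had at most 5 called members in a column, where 5.77% of all genes were lower and 3.53% higher in introns and 2.67% and 1.48% in exons. In introns 4 of 22 chromatin remodeller genes were lower (Rad54l, Rad54l2, Smarcal1 and Shprh) and Smarca2 was higher at 0.93, and 4 of 27 Polycomb genes were higher (Mtf2, Phf19, Eed and Jarid2), of which Jarid2 had 31342 counts in IAA replicate 1 against 6827 to 9858 in the other libraries. With no replicate block, 0 remodeller and 0 Polycomb genes passed the thresholds in introns, and Mtf2, with 338 and 0 counts against 596 and 63, was at -0.041 without control replicate 2 and at -0.93 without IAA replicate 1. Among H3K4 methylation genes Rbbp5 was lower (-0.57) and Dpy30 higher (0.38), and among H2A.Z exchange factors Meaf6 was lower (-0.43) and Anp32e, a chaperone that removes H2A.Z, higher (0.39). Germ-layer and lineage factors had 2 of 15 higher in introns, Pax6 with 19 and 18 counts against 37 and 38 and Eomes with 7 and 0 against 15 and 15. Heat shock genes had Chordc1 lower in introns and Dnajb4 and Hspa1b higher in exons, ATF4 targets had Wars lower in introns, and the BMP list had Smad5 lower in introns and Bambi higher in exons. Cytosolic ribosomal protein genes had Rps14 lower in introns (-0.37) and 0 of 82 called in exons. Csnk1e was the higher clock gene in introns (-0.020 without IAA replicate 1), and 0 of 23 nuclear long noncoding RNAs were called in exons. Of 13 genes named earlier as SRCAP-responsive in the time course of this series, a list chosen on related samples and no independent evidence, Bloc1s6 (-0.78) and Alkbh8 (-0.41) were lower and Pipox higher (0.39) in introns, and Nol4l was lower in exons (-0.31).

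The share of genes called in introns was lowest in the quartile of longest genes. By quartile of gene length, from the shortest (808 to 14296 bp) to the longest (73175 bp and more), 6.31%, 8.14%, 6.28% and 2.37% of genes were lower and 2.73%, 4.18%, 4.90% and 2.34% higher. The replicate pairs moved in opposite directions along length, with a median log2 ratio of -0.13 in the shortest and 0.17 in the longest genes in replicate 1 and of 0.11 and -0.14 in replicate 2. The lower calls peaked at 9.77% in the third quartile of mean count (156 to 499) and were 2.34% in the highest. In exons 3.4%, 2.91%, 3.04% and 1.36% of genes were lower by quartile of length. Length and count are related, and their parts were not tested. Promoter motifs of the called genes were not compared, because a RefSeq promoter was matched for 75.6% of the genes tested in introns and 61.3% in exons.

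**Figure D5:**
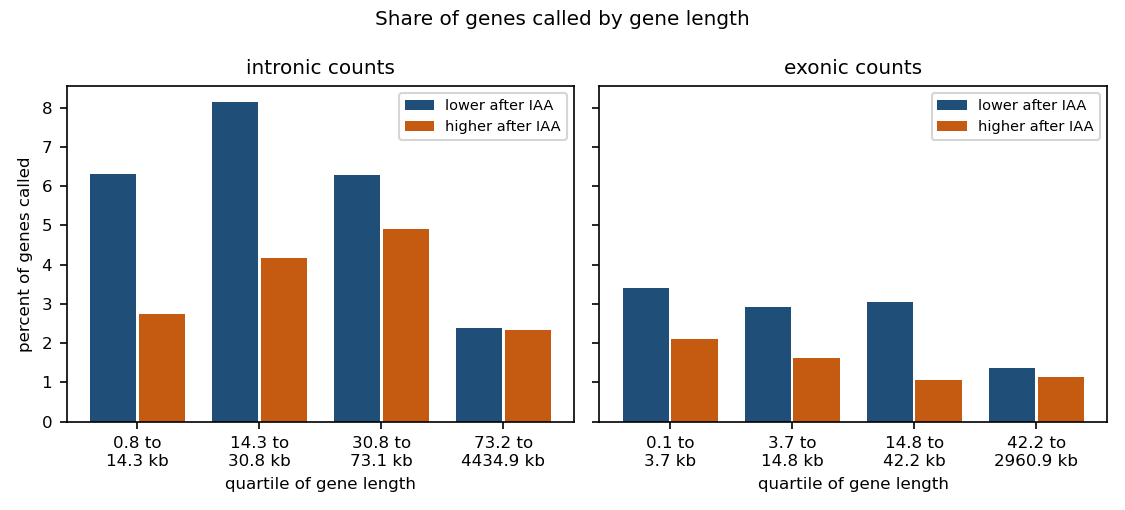
Percent of tested genes called lower (blue) and higher (orange) after IAA in LG1 cells (y axis, from 0) in each quartile of gene length (x axis, range in kb), in intronic (left) and exonic (right) counts. In introns the lower share was 8.14% in the second and 2.37% in the longest quartile.

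The exonic response in LG1 was set beside that in EG1 cells, which had been in mitosis during part of the IAA treatment, with the difference tested as an interaction over the 8 sorted libraries. Of 21020 genes, 5 differed at an adjusted p under 0.05 (0.0238%), 4 annotated miRNA genes and the antisense RNA gene Gm15564, each high only in LG1 IAA replicate 1 among the LG1 libraries. At an unadjusted p under 0.05 there were 1001 genes (4.76%), with the LG1 change below that of EG1 in 379 (1.8%) and above it in 622 (2.96%). Named genes with an unadjusted p under 0.05 included Ndufa12, at -0.30 in LG1 and 0.13 in EG1 (difference -0.43, SE 0.141, adjusted p = 0.871). Perp was at -0.048 and 0.22 (difference -0.27, SE 0.0955, adjusted p = 0.961). Tbp was at -0.39 in LG1 and -0.12 in EG1 (difference -0.27, SE 0.109), Jun at 0.28 and 0.49 (difference -0.21, SE 0.0874) and Fos at 0.45 and 0.67 (difference -0.22, SE 0.103), each with an adjusted p of 0.999. These are examples and not all such genes. Among genes with a mean of at least 30 counts, those with the smallest p below EG1 were the processed pseudogenes Gm10036 (-0.55, adjusted p = 0.457), Rps10-ps1 (-0.47), Atp6v0c-ps2 (-0.44), Gm5898 (-0.62) and Gm13092 (-0.53), whose reads may be shared with their parent genes. The differences of Cyp1a1 (-0.12, SE 0.181), Cyp1b1 (-0.10, SE 0.152) and Ier2 (0.10, SE 0.0953) were smaller than or near their standard errors.

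Of the 529 genes lower in LG1 exons, 114 (21.6%) were lower in EG1 exons too, where 4.81% of the same genes were lower, and they made up 12% of the 953 lower in EG1. Of the 293 higher, 41 (14.0%) were higher in EG1, against 1.58%. Calls in the opposite direction numbered 5 and 11. In unsorted SYAT cells after 2, 4, 6 and 8 h, 20.6%, 18.7%, 25.3% and 19.3% of the 491 LG1 lower genes tested in both were lower, where 4.25%, 9.08%, 12.1% and 12.5% of all were. Of the 279 higher genes, 12.2%, 15.4%, 31.2% and 21.5% were higher, where 2.73%, 5.31%, 12% and 8.13% of all were. In CGR8 cells 17 of 502 (3.39%) were lower, where 8.23% of all were, and 65 were higher. For the LG1 higher genes the share in CGR8 cells was 9.42%, beside 9.08% of all. These comparisons share no library with LG1, the overlaps are descriptions without a test, and the time-course values share 1 pair of control libraries among themselves. Whether EG1 and LG1 cells of the same replicate number came from the same culture is not given by the labels, so their overlap may not be independent.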

How the data were processed

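Nuclear RNA of SYAT cells sorted in LG1 was sequenced in 2 replicates, called biological by the study. The authors aligned paired-end reads with STAR to mm10 and counted them with featureCounts on GENCODE vM25 exons and introns (the gene body without exons). The deposited values are whole-number counts per gene without normalization, in separate columns for introns and exons of each library. SAMtools 1.10, Picard and DESeq2 are also named in the submitters' processing notes, and the strand setting of the counting is not given in the sources used here. The authors' own tables of fold changes and p-values were not used. Single-exon genes were used to check the columns: 2 of 2085 had LG1 intron counts, so LG1 intron columns hold introns only, whereas 991 of 2215 had EG1 intron counts, and the EG1 introns were therefore kept out of the main comparisons.

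Counts were tested with the quasi-likelihood test of edgeR 4.0.16 in R 4.3.3, with TMM scaling, filterByExpr (minimum count 10, minimum total 15), the replicate number as a block and Benjamini-Hochberg adjustment over all genes of a fit. Every adjusted p in the text is from edgeR. Levels are CPM scaled by TMM, except for sums over marker, histone and other cell cycle lists, which are relative to library totals. Calls used an absolute log2 fold change over 0.25 and an unadjusted p under 0.05. The 4 LG1 libraries were fitted alone, and the difference between LG1 and EG1 was an interaction over 8 libraries, with the block within each phase. The other tables were fitted in the same way, each as a whole. Depth per LG1 library was 4520810 to 7724200 intronic and 19740778 to 24382959 exonic counts, and intervals cover the spread between these libraries only, which may be technical. The labels do not say what a replicate number shares. Deviations from the group means correlated at 0.55 in introns and 0.58 in exons between same-numbered libraries, with only 2 pairs. The scripts were tested on simulated data.

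Members and lists were chosen with earlier results of these data known. Named genes were, in each column, the 10 lower and 10 higher genes with the smallest p among those with a mean count of at least 30 and both pairs of one sign, every gene at an adjusted p under 0.05, up to 10 genes a direction called in both columns, Srcap, H2afz and H2afv, and up to 4 called members of each list. Further list members, and uncalled genes given for contrast, were named after their values were seen. A few genes that the rule names are not reported here. Symbols and positions came from GENCODE vM21 (GRCm38), which matched 55141 of 55401 identifiers, 54349 with the same version. Promoters came from RefSeq (GRCm38.p6). Alternatives were no block, DESeq2 1.42.0, other scalings, filters, thresholds and fits leaving out each library. Leaving out IAA replicate 1 for gene lists was added after the data were seen. Figures were drawn with matplotlib 3.10.9.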

Additional observations from a re-analysis of the deposited data

Results flagged for a closer look

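In 4 annotated miRNA genes and the antisense RNA gene Gm15564, 5 genes in all, the response to IAA differed between LG1 and EG1 in the interaction test on exons at an adjusted p under 0.05. The difference, LG1 minus EG1 on the log2 scale, was 6.13 for Gm25911 (adjusted p = 6.88e-06), 5.95 for Gm24187 (4.60e-05), 4.37 for Gm24270 (0.00503), 4.16 for Mir6236 (0.00503) and 3.42 for Gm15564 (0.0385). Of the LG1 libraries each was high in IAA replicate 1 alone, with 609 counts of Gm25911 there and 8, 0 and 2 in the other LG1 libraries. That library also had 17991 exonic counts of Lars2, against 400 to 789 in the other 3, and the highest rRNA gene share, 1.66%. In fits leaving out this or any other library, and in a fit of all 8 libraries without the block, 0 genes differed at an adjusted p under 0.05 (71 to 498 and 147 at an unadjusted p under 0.05). The part of the rRNA share in these values was not tested.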

How the results depend on the processing

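The replicate block decides most calls. With no replicate block, introns had 263 lower and 86 higher genes and exons 57 and 22, with 0 at an adjusted p under 0.05 in either by edgeR (349 and 79 at an unadjusted p under 0.05), and the difference between LG1 and EG1 had 0, with 52 genes below and 95 above. Under the block with DESeq2, introns had 114 lower, 44 higher and 0 adjusted genes, exons 0, 1 and 3, and the difference 0, 54 and 52. DESeq2 without the block gave 129, 30 and 3 in introns and 0, 0 and 0 in exons (12 at an unadjusted p under 0.05). Fits leaving out each library, all without the block, gave 91 to 620 lower, 60 to 535 higher and 1 to 35 adjusted genes in introns, 10 to 456, 35 to 218 and 0 to 10 in exons, and 0 to 0 adjusted, 34 to 123 below and 28 to 445 above for the difference. The numbers only label the 2 pairs, and a call lost without the block is not described as a smaller effect.

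Scaling by library totals gave 152 higher and 147 adjusted genes in introns and 855 lower, 195 higher and 194 adjusted in exons. Median-of-ratios scaling gave 1 adjusted gene in introns and 88 in exons. With no filter the adjusted counts were 163 and 150, and 33 for the difference, with 614 below. A mean of at least 30 counts gave 12 and 139, which are fits of fewer genes, and a fit of all 8 sorted libraries gave 0 and 1. With 1 block shared by both phases the difference had 0 adjusted genes. A log2 threshold of 0.5 left 241 higher genes in introns and 236 lower and 101 higher in exons. In introns, with exonic counts taken off the EG1 columns, the difference had 96 adjusted genes, 237 below and 353 above. The EG1 intron columns do not hold exonic counts for every gene, since 991 of 2215 single-exon genes had counts there. Negative values after the subtraction were set to 0, so these numbers are not a sound estimate of the intronic difference. With no replicate block, list medians less the median of all genes moved to 0.13 for clock genes and -0.17 for KRAB-type zinc fingers in introns, and in exons to 0.055 for ATF4 targets, 0.12 for G1 cyclins, 0.024 for ribosomal proteins, -0.017 for cilium genes and 0.036 for clock genes. Where no cause follows from how an alternative is built, the cause was not tested.

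Reversals appeared only when a library was left out. The ranges of the log2 fold change in introns were -0.0713 to 0.88 for Rrm2, -0.0200 to 0.75 for Csnk1e, -6.45 to 11.39 for Pou2f1, -0.10 to 1.51 for Slc27a2 and -0.93 to 11.12 for Mtf2. In exons they were -0.0699 to 0.72 for Notch4, -0.0197 to 0.63 for Tbx3, -1.22 to 0.0435 for Cyp1b1, -0.10 to 0.68 for Slc27a2, -0.35 to 0.87 for Psmb10, -0.26 to 0.77 for Bend3, -0.20 to 0.84 for Zic5, -0.00523 to 0.52 for Fgf4, -0.22 to 0.65 for Hist1h4h, -0.90 to 0.34 for Nol4l, -0.41 to 1.00 for Zic2, -0.27 to 0.73 for Hist1h2ab, -1.40 to 1.89 for Foxd3, -0.0915 to 0.56 for Hist1h3d, -0.30 to 0.72 for Hist1h3f, -0.54 to 5.39 for Gm24270, -0.96 to 4.81 for Gm15564 and -6.30 to 11.07 for Mir6236. For the difference they were -0.35 to 6.11 for Gm24270, -1.32 to 5.32 for Gm15564, -1.11 to 11.27 for Gm25911, -5.77 to 11.74 for Gm24187 and -7.18 to 10.43 for Mir6236.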
